A study of Mus musculus with 4 samples.

Results

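Integrins are the cell-surface receptors that tie the cytoskeleton to the extracellular matrix or to other cells, and laminins are the large matrix proteins of basement membranes that several integrins bind. The genes described here are the 41 protein-coding genes of the GENCODE M21 mouse annotation whose symbols begin as those of integrin alpha or beta subunits or of laminin chains, out of 21938 protein-coding genes on chromosomes 1 to 19, X and Y. They comprise 17 genes of adhesion integrins, 9 of integrins found mainly on leukocytes, the platelet subunit gene Itga2b, 11 laminin genes, and 3 genes that the name pattern also takes but that encode integrin-binding proteins (Itgb1bp1, Itgb1bp2 and Itgb3bp). Acetylation of lysine 9 of histone H3 (H3K9ac), a mark of active promoters and enhancers, was mapped by ChIP-seq in HT22 cells, an immortalised line derived from mouse hippocampal neurons (spelled TH22 in 1 label). The cells received choline chloride, a nutrient precursor of phospholipids, acetylcholine and methyl groups, at 5 µM (control) or 70 µM (supplemented) for 48 h. Of the 4 libraries 2 held DNA from the H3K9ac ChIP and 2 held input DNA, and their labels do not give the choline level of each.

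An integrin is a pair of 1 alpha and 1 beta subunit. The beta1 subunit joins most alpha subunits into receptors for collagens, laminins and fibronectin. The alphav subunit joins several beta subunits into receptors for ligands with the Arg-Gly-Asp motif, and the beta2 and beta7 subunits form receptors found mainly on leukocytes. A laminin is a trimer of an alpha, a beta and a gamma chain. In the brain, integrins and laminins are known for roles in cell migration, neurite growth and the basement membrane of blood vessels.

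The data were 1 list of 45855 regions of the mm10 genome in which the authors' comparison found H3K9ac to differ, and the authors' deposited table gives the position of each with 1 score. Scores ran from 3.08 to 44.48 in that table, where their column has no name, and a region with a higher score is called stronger here. Of these, 360 were assigned to condition 1 and 45495 to condition 2 (99.2%). The region names put 5 before 70, so 5 µM is taken as condition 1 and 70 µM as condition 2, and every direction below rests on that reading. The deposited list itself is named as input against H3K9ac, without a choline level. The labels therefore do not settle what condition 1 and condition 2 were. Regions alike in both conditions are not listed, so a gene without a region may have had H3K9ac at both levels or at neither. At most 1 ChIP library stood for each level, read depth is unknown, and nothing below could be tested against a spread between cultures. Chromosomes differed in how densely they were covered, from 0.174 regions per Mb on Y to 37.5 on chromosome 11 and 37.1 on chromosome 15. Of the markers of neurons, the labelled cell type, 3 of 8 had a region within 1 kb of a start, among them Rbfox3, against 39.5% of all protein-coding genes. Of the markers of leukocytes 3 of 8 had one, of fibroblasts and mesenchyme 6 of 6, of epithelium 1 of 4 and of platelets 2 of 4. The shares of neuron and leukocyte markers, both 37.5%, were close to that of all genes. Ptprc, which encodes the CD45 antigen of all leukocytes, had none in its span. Since common regions are not listed, these counts do not show which markers were active.

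All 85 regions at or in the integrin and laminin genes were assigned to 70 µM. Of these, 65 lay inside a gene away from its starts and 20 lay at a start, 12 of them at adhesion integrin genes and 0 at leukocyte integrin genes. A region was counted at a start (a start-site region) where it overlapped a window of 1000 bp on each side of a transcript start annotated for the gene. Of the 41 genes, 13 had such a region (31.7%, exact 95% binomial interval 18.1 to 48.1), against 39.5% of all protein-coding genes. Among adhesion integrins 9 of 17 had one (52.9%, 27.8 to 77.0), among leukocyte integrins 0 of 9 (upper limit 33.6%), and among laminins 1 of 11 (9.09%, 0.23 to 41.3). Itga2b and 2 of the 3 integrin-binding protein genes, Itgb1bp1 and Itgb3bp, also had one. The classes are small and their intervals wide, and these describe counting over genes, not error between cultures. The adhesion and leukocyte intervals overlap, and that of the adhesion integrins includes the share of all genes. No start-site region of the 41 genes was assigned to 5 µM, where the share over all protein-coding genes was 0.88%.

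**Figure D1:**
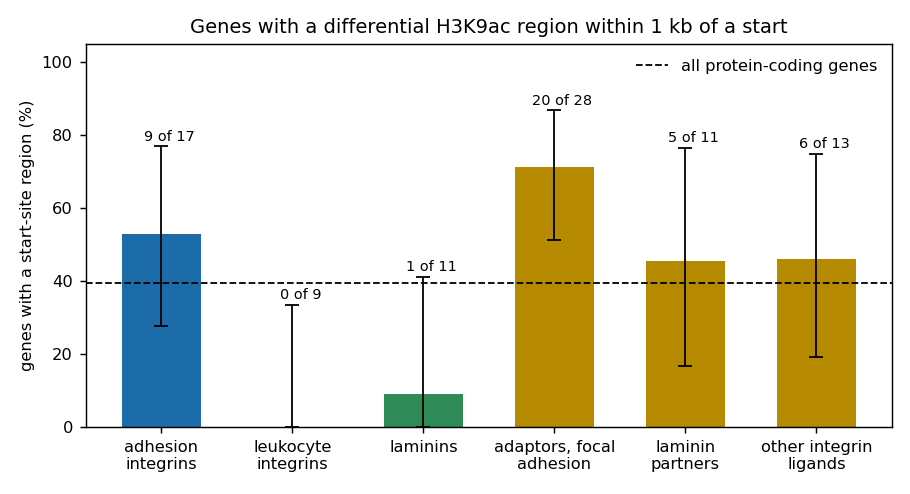
Percentage of genes (vertical axis) with a differential H3K9ac region within 1 kb of an annotated start, for integrin and laminin genes and for 3 lists of related genes (horizontal axis). Error bars are exact 95% binomial intervals over genes and the dashed line is the share of all protein-coding genes, 39.5%; adhesion integrins stand at 52.9%, leukocyte integrins at 0 of 9 genes and laminins at 9.09%.

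At 7 adhesion integrin genes the region lay at the start of the transcript that GENCODE numbers lowest, called the reference transcript here. These were the alpha subunit genes Itga3, Itga5, Itga6 and Itgav and the beta subunit genes Itgb1, Itgb5 and Itgb8. By this narrower rule 41.2% of adhesion integrin genes, 0 of 9 leukocyte integrin genes and 0 of 11 laminin genes were marked, against 32.6% of all protein-coding genes. The other marked genes of the families, Itga10, Itgb4, Itga2b and Lama5, had regions only near the start of another transcript, which in all but Itgb4 had no coding sequence. The 8 regions of adhesion integrins at a reference start had a median score of 4.25 (3.57 to 19.01) in the authors' deposited table and a median G and C content of 68.5%, with 9.35 CpG sites per 100 bp. The 4 at other starts had a median score of 6.57 (4.60 to 22.54) there, with 55.2% G and C and 0.91 CpG sites per 100 bp.

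Itgb1 (ENSMUSG00000025809.15) encodes the beta1 subunit common to most matrix receptors. Its gene span of 47.5 kb on chromosome 8 held 1 region, of 185 bp, in intron 1, with its midpoint 561 bp downstream of the start. The score was 3.99 in the authors' deposited table, and 11.2% of all listed regions scored lower. Itga3 (ENSMUSG00000001507.16) encodes the alpha3 subunit, which with beta1 binds laminins. A region of 203 bp lay 417 bp upstream of the reference start and scored 9.38 in the authors' deposited table, and 1 in intron 1, outside the start windows, scored 3.45 there. A second start-site region of Itga3, of 210 bp, lay far downstream in intron 18, 549 bp after the start of a transcript that retains an intron. It scored 22.54 in the authors' deposited table and was the strongest start-site region of the 41 genes, and 96.5% of listed regions scored lower. The 3 sequences are printed because they show this contrast: the region near the Itgb1 start held 22 CpG sites and that before the Itga3 start 16, while the stronger one inside Itga3 held 5. All sequences are reference sequence of GRCm38.p6 from RefSeq, the build of mm10, 5′ to 3′ on the strand of the gene, and capitals mark CpG sites. The Itgb1 region is chr8:128686123-128686307 (plus strand), and those of Itga3 are chr11:95077030-95077232 and chr11:95055541-95055750 (minus strand).
Itgb1, intron 1: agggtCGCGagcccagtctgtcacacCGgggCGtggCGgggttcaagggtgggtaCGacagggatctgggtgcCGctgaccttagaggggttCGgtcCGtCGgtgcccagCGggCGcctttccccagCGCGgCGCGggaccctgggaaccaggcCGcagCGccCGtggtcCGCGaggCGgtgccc
Itga3, upstream of the start: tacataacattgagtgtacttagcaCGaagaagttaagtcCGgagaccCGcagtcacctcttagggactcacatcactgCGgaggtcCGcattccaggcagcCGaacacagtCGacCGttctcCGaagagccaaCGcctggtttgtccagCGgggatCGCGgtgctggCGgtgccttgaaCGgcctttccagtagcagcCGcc
Itga3, intron 18: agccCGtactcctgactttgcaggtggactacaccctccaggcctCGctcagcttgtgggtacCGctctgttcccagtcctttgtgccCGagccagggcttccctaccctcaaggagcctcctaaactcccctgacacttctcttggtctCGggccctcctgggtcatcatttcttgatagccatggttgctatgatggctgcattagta

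Itga5 and Itgb5 held the most regions of the families. Itga5 (ENSMUSG00000000555.8), the alpha subunit of the fibronectin receptor, carried 9 regions in 22.5 kb on chromosome 15, or 40.04 per 100 kb, where the pooled density of all protein-coding genes was 3 per 100 kb. Of the 9, 1 lay in the coding part of exon 1, 432 bp after the reference start (330 bp wide, 27 CpG sites, score 4.03 in the authors' deposited table). A further 6 lay in intron 1, 1 in intron 2 and 1 in exon 8, the last a start-site region (4.60) by way of a transcript that retains an intron. The scores of all 9 ranged from 3.70 to 12.12 in the authors' deposited table, with a median of 4.34, and 68.6% of listed regions scored lower than the strongest of them. Chromosome 15 had the largest share of genes with a start-site region of any chromosome, 56.1%, and the part of the chromosome in the Itga5 result was not tested. Itgb5 (ENSMUSG00000022817.15), a partner of alphav, carried 10 regions in 120 kb on chromosome 16, or 8.36 per 100 kb, and 39.2% of that chromosome's genes had a start-site region. Its start-site regions both lay in intron 1, 375 and 883 bp after the start, with scores of 4.15 and 4.35 in the authors' deposited table, and the first was 356 bp wide with 51 CpG sites. The other 8 lay 2776 to 18918 bp from the nearest annotated start, and the strongest of these scored 20.85 in the authors' deposited table.

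Itgav (ENSMUSG00000027087.11), which encodes alphav, had the start-site region with the most CpG sites of the families and one of the lowest scores. It was 378 bp wide over exon 1, its midpoint 290 bp after the reference start. It held 54 CpG sites and 75.4% G and C, and scored 3.57 in the authors' deposited table, with 3.45% of listed regions lower. Intronic regions of Itgav lay 5189 and 20582 bp downstream of a start and scored 8.54 and 5.62 in the authors' deposited table. Itga6 (ENSMUSG00000027111.15) encodes the alpha6 subunit of laminin receptors. Its region in coding exon 1 held 20 CpG sites in 190 bp and scored 4.53 in the authors' deposited table. Beyond it in intron 1 came 3 further regions, 1170, 1557 and 2213 bp from the start, and their scores rose with distance, 5.93, 7.78 and 22.22 in the authors' deposited table. In Itga6 the strongest region was thus not the one at the start, and 74.1% of its bases were repeat sequence. Of the remaining regions 1 lay 20066 bp upstream of the reference start, in an intron of a longer transcript (3.98), and 1 in intron 11 (19.01 in the authors' deposited table). Itgb8 (ENSMUSG00000025321.14), another partner of alphav, had 1 region, 510 bp after the start in the untranslated part of exon 1. It had only 4 CpG sites in 158 bp, and its score of 19.01 is the commonest exact value in the authors' deposited table, where 2552 regions hold it.

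Itga10 and Itgb4 counted as marked only through starts inside the gene. In Itga10, which encodes a subunit of a collagen receptor, the region lay in intron 20, before the start of a short transcript that retains an intron. Its nearest edge was 949 bp from that start, and it scored 6.94 in the authors' deposited table. In Itgb4, the beta subunit that pairs with alpha6 in the hemidesmosomes of epithelia, it lay in intron 2, its edge 962 bp before the starts of shorter coding transcripts, and it scored 6.20 in the authors' deposited table. The other 3 regions of Itgb4, in exon 4 and introns 27 and 33, scored 5.02, 15.69 and 14.01 there. Itga10 and Itgb4 were the genes just inside the limit of 1000 bp, and the gene just outside it was Lamb2 at 1051 bp. Neither Itga10 nor Itgb4 counted when the midpoint of the region had to lie in the window, which left 7 of 17 adhesion integrins. The Itga10 region, chr3:96656325-96656489 (plus strand), held 3 CpG sites and the Itgb4 region, chr11:115976613-115976824 (plus strand), held 0. They are printed because they were the strongest start-site regions of adhesion integrins after those of Itga3 and Itgb8, and they show starts marked without CpG-dense sequence, as were those in exon 8 of Itga5 (0 CpG sites) and in intron 18 of Itga3.
Itga10, intron 20: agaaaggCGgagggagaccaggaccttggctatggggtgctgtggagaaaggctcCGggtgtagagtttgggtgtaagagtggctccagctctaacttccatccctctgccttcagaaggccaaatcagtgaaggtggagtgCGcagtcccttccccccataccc
Itgb4, intron 2: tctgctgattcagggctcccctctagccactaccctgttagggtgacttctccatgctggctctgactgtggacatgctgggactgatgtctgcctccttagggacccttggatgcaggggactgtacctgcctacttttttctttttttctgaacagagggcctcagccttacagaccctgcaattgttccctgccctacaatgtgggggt

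The 8 adhesion integrin genes without a start-site region were Itga1, Itga2, Itga7, Itga8, Itga9, Itga11, Itgb3 and Itgb6. Itga1, Itga2 and Itga11 encode collagen-binding subunits, so 1 of 4 collagen receptor genes was marked (Itga10; exact 95% binomial interval 0.631 to 80.6%). Of the 4 laminin receptor genes Itga3, Itga6, Itga7 and Itgb4, 3 were marked (19.4 to 99.4%). Of the receptor genes of the Arg-Gly-Asp type and their partners (Itga5, Itga8, Itgav, Itgb3, Itgb5, Itgb6 and Itgb8), 4 of 7 were marked (18.4 to 90.1%). All 3 intervals include the 39.5% of all protein-coding genes, and Itga10 and Itgb4 drop out under the midpoint rule. Itga2, Itga7, Itga11 and Itgb3 had no region in the span either, and the nearest listed region was 83084, 22984, 52379 and 21958 bp from a start. Itgb6, the partner of alphav in epithelia, held 5 intronic regions, the nearest to a start at 2456 bp scoring 18.78 in the authors' deposited table. Itga8 held 2, Itga9 2 and Itga1 1. The Itga1 region lay in intron 1, inside the span of Pelo, a gene that overlaps Itga1.

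All regions in leukocyte integrin genes were away from their starts. Of the 9 genes 5 held a region in the span (55.6%), against 52.1% of all protein-coding genes. The list comprised Itgal, Itgam, Itgax and Itgad, the alpha subunits of the beta2 family, and the beta subunit genes Itgb2, Itgb7 and Itgb2l. It also held Itgae and Itga4, which pair with beta7, and alpha4 pairs with beta1 as well. With Itga4 counted among the adhesion integrins instead, 9 of 18 of those and 0 of 8 leukocyte integrins had a start-site region. Itga4, Itgax, Itgb2l and Itgb7 had no region in the span, and their nearest listed regions lay 204234, 35732, 105635 and 3979 bp from a start. The 5 genes with a region held 6 in all. Itgal (ENSMUSG00000030830.18), the alpha subunit of LFA-1, had 1 in coding exon 11, 159 bp wide, 2668 bp from the nearest annotated start, and it scored 22.58 in the authors' deposited table. In Itgad the region was in intron 7 and scored 16.88 there, and in Itgam it was in intron 12, consisted wholly of repeat sequence (100%) and scored 4.39 in the authors' deposited table. The 2 regions of Itgb2, in introns 1 and 3, held 0 CpG sites and scored 4.01 and 3.99 in the authors' deposited table. The region of Itgae, in intron 26, was the only CpG-dense one of the class, with 26 CpG sites in 303 bp, and it lay in the start window of Haspin, a kinase gene nested in Itgae. It scored 5.43 in the authors' deposited table. The Itgal and Itgad regions are printed as the strongest of the class, chr7:127306771-127306929 and chr7:128183226-128183363 (plus strand), with 4 and 2 CpG sites.
Itgal, exon 11: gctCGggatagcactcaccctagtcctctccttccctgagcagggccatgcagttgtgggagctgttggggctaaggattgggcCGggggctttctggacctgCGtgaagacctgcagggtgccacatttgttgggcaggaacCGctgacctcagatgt
Itgad, intron 7: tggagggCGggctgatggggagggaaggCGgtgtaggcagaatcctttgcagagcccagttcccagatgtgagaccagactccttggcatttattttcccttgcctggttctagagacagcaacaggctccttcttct

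Adhesion and leukocyte genes also differed in what surrounds their starts. The start windows of the 17 adhesion integrin genes had a median of 2.48 CpG sites per 100 bp (1.20 to 3.94) and those of the 9 leukocyte integrin genes 1.20 (0.87 to 2.14). Over all protein-coding genes the median was 2.71 in genes with a start-site region and 1.59 in those without. Within the adhesion integrins it was 2.84 in the 9 marked genes (1.20 to 3.94) and 1.98 in the 8 unmarked (1.48 to 3.73), and the groups overlapped: Itga11 at 3.73 was unmarked and Itga10 at 1.20 was marked. Adhesion genes also had more annotated starts, a median of 6 against 5, and so longer start windows, 6018 bp against 4461 bp. They were longer too, with a median span of 82.5 kb against 38.9 kb. Of the leukocyte genes, 4 lie on chromosome 7 (Itgal, Itgam, Itgax and Itgad), where 33.0% of genes had a start-site region. Unmarked Itgb7 and Itgae lie on chromosomes 15 and 11, where 56.1% and 49.8% of genes had one. The part of CpG density, number of starts and chromosome in the difference between the classes was not tested.

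**Figure D2:**
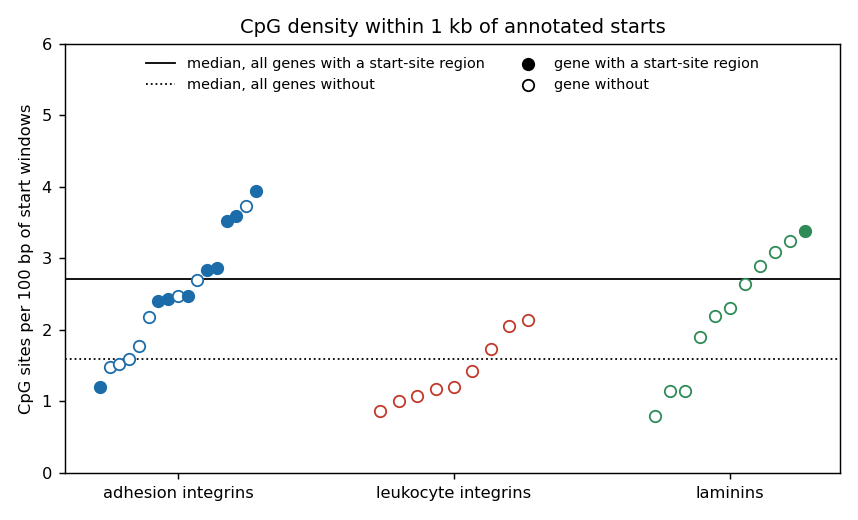
CpG sites per 100 bp in the start windows (vertical axis) of each adhesion integrin, leukocyte integrin and laminin gene, ordered by value within its class (horizontal axis). Filled points are genes with a start-site region, and lines are the medians of all protein-coding genes with (2.71) and without (1.59) one; no leukocyte integrin gene exceeds 2.14, while 10 unmarked laminin genes span 0.80 to 3.24.

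Set against the 24 alpha-beta pairs known in mammals, both subunit genes had a start-site region for 8 pairs, 1 of them for 10 and neither for 6. The 8 were beta1 with alpha3, alpha5, alpha6, alpha10 and alphav, alphav with beta5 and beta8, and alpha6 with beta4. The pairs with alpha10 and beta4 rest on Itga10 and Itgb4, which had no region at the reference start and drop out under the midpoint rule. The 6 with neither were all 6 pairs that contain beta2 or beta7. They consist of leukocyte integrin genes alone, so they restate that none of those genes was marked. Pairs that have a subunit in common are not independent, since Itgb1 alone enters 12 of them.

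Itga2b (ENSMUSG00000034664.13), the alpha subunit of the platelet fibrinogen receptor, held 4 regions in 16.8 kb on chromosome 11, or 23.77 per 100 kb. Of these, 3 were start-site regions with scores of 5.42, 4.19 and 7.32 in the authors' deposited table. None was at the reference start: they lay 2518 to 14726 bp downstream of it, in exon 4 and introns 28 and 29, near starts of processed transcripts without a coding sequence. Itga2b has 10 annotated starts, the most of the 41 genes, and 49.8% of genes on chromosome 11 had a start-site region. Its partner Itgb3, on the same chromosome, had none. Of the integrin-binding protein genes, Itgb1bp1 shared its start-site region with Cpsf3 (score 3.64 in the authors' deposited table), and the 3 start-site regions of Itgb3bp lay in start windows of Efcab7 (4.31 and 3.43 there) or Pgm1 (4.07). These 4 were the only start-site regions of the 41 genes that also lay at another protein-coding gene's start. Itgb1bp2 had no region.

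Every laminin gene held at least 1 region in its span, but almost none at a start. Over all members, 32 of 41 genes had a region in the span (78.0%), with 11 of 11 laminins, 13 of 17 adhesion integrins and 5 of 9 leukocyte integrins, against 52.1% of all protein-coding genes. The laminin genes had a median span of 114 kb against 17.4 kb for all protein-coding genes and 82.5 and 38.9 kb for the adhesion and leukocyte integrins; the part of gene length in these counts was not tested. Pooled over genes, the laminins held 21 regions or 1.27 per 100 kb, where all protein-coding genes together held 3 per 100 kb. The adhesion integrins held 2.93 and the leukocyte integrins 1.53 per 100 kb when pooled. The median over genes gave the opposite direction: 1.55 regions per 100 kb for laminins, 2.10 for adhesion integrins and 1.44 for leukocyte integrins, against 0.703 for all protein-coding genes. A class therefore lay below or above all genes depending on the measure, and Lama2, with 1 region in 640 kb, weighed most on the pooled value of the laminins. Without Itga5 and Itgb5, which hold 19 of the 47 regions in adhesion integrin genes, the pooled value of the adhesion integrins was 1.91. Of the 41 genes, 15 exceeded the pooled density of all protein-coding genes, among them 8 adhesion integrins, 4 laminins (Lama5, Lamb2 and Lamc3 among them) and 1 leukocyte integrin (Itgb2); over all protein-coding genes the share was 39.8%. The median density of all protein-coding genes, 0.703 per 100 kb, was exceeded by 29 of the 41. Since 0.703 is the median of all protein-coding genes, no more of them could exceed it than lay at or below it.

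**Figure D3:**
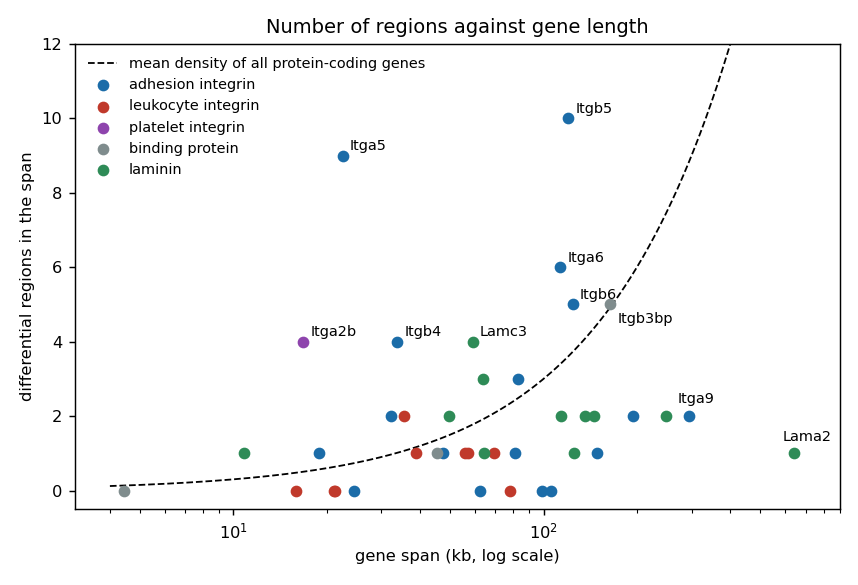
Number of differential regions in the gene span (vertical axis) against the span in kb (horizontal axis, log scale) for the 41 genes, each point 1 gene, coloured by class. The dashed curve is the density of all protein-coding genes, 3 regions per 100 kb; Itga5 (9 regions in 22.5 kb) and Itgb5 (10 in 120 kb) lie far above it and Lama2 (1 in 640 kb) far below.

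Among the alpha chains, Lama5 (ENSMUSG00000015647.9), a chain of the laminins of mature basement membranes, had the only start-site region. It lay in exon 73, 47818 bp downstream of the reference start and 362 bp after the start of a processed transcript, and scored 11.20 in the authors' deposited table. Another Lama5 region, in intron 1, 4349 bp from the start, scored 19.89 in the authors' deposited table. Lama1, the chain of the early embryonic basement membrane, and Lama2, that of muscle and nerve, each held 1 intronic region, among the strongest of the families with scores of 22.14 and 23.48 in the authors' deposited table. The Lama2 region lay 212625 bp from the nearest annotated start of the gene and consisted wholly of repeat sequence (100%), with 38.4% G and C. Lama3 and Lama4 held 2 regions each, with scores of 6.80 and 4.72 and of 5.21 and 18.27 in the authors' deposited table. The Lama5, Lama1 and Lama2 regions, chr2:180177960-180178121 (minus strand), chr17:67715532-67715683 (plus strand) and chr10:27404072-27404269 (minus strand), are printed as the only start-site region and the strongest others of the class. They hold 5, 7 and 2 CpG sites, against 22 in the region near the Itgb1 start.
Lama5, exon 73: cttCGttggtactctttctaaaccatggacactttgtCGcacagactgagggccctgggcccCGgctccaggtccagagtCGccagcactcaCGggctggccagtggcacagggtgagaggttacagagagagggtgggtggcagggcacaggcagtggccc
Lama1, intron 1: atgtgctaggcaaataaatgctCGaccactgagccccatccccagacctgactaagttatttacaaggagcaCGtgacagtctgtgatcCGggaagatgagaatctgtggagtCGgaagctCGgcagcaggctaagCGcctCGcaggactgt
Lama2, intron 4: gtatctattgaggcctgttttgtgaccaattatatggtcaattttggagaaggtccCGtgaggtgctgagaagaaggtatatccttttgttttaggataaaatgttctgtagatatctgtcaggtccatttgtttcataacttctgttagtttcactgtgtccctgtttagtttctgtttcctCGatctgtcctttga

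The beta and gamma chain genes had no start-site region, but several had regions within 2500 bp of a start. In Lamb1, the widespread beta chain, the nearest region began 1938 bp from a start (score 3.58 in the authors' deposited table), in Lamb2, the beta chain of synapses and kidney, 1051 bp (6.19), in Lamc1, the gamma chain of most laminins, 2359 bp (6.84), and in Lamc3 1934 bp (16.25). With windows of 2500 bp 6 of 11 laminins were marked (54.5%), against 46.5% of all protein-coding genes, while the leukocyte integrins remained at 0 of 9 and the adhesion integrins had 10 of 17. Lamc3 held 4 regions, of which 3 in introns 1 and 2 scored 16.25, 16.39 and 17.77 in the authors' deposited table. Lamb3, a chain of epithelial laminin, held 2, in introns 10 and 18.

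**Figure D4:**
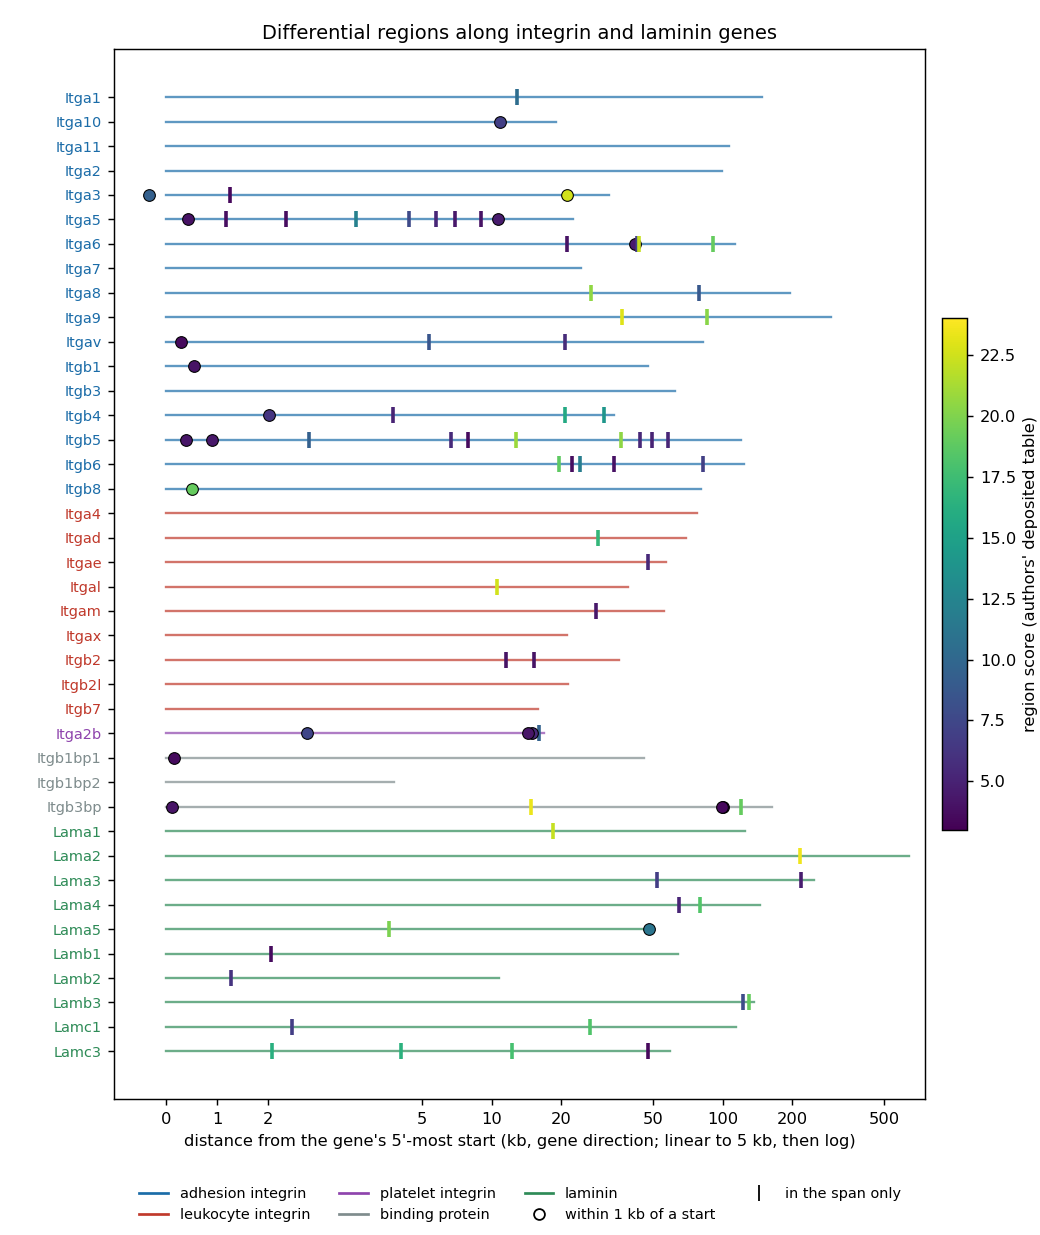
Position of each differential region (marks) along 40 of the 41 genes (rows), as the distance of its midpoint from the gene's 5′-most start in kb in gene direction (horizontal axis, linear to 5 kb and then logarithmic). Circles are regions within 1 kb of any annotated start, bars those elsewhere in the span, and colour gives the score in the authors' deposited table; circles sit within 1 kb of the 5′-most start at Itga3, Itga5, Itgav, Itgb1, Itgb5 and Itgb8 among the adhesion integrins and at no leukocyte integrin or laminin gene.

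Score and position went together in these genes as in the whole list. The 20 start-site regions of the families had a median score of 4.44 (3.43 to 22.54) in the authors' deposited table, and the 65 other regions 7.78 (3.45 to 23.48). In the whole list the medians were 5.00 at starts of protein-coding genes and 8.73 elsewhere. Scores of 15 or more, a limit set after the values were seen, were held by 2 of the 20 start-site regions (10%) and 22 of the 65 others (33.8%). In the whole list the shares were close to these, 8.71% at starts and 31.6% elsewhere. At starts the median CpG content of the families' regions was 6.69 per 100 bp and elsewhere 1.00, against 2.98 and 1.02 in the whole list. When regions below the list's median score of 6.64 were set aside, 3 of 17 adhesion integrins (Itga3, Itga10 and Itgb8) and 1 of 11 laminins had a start-site region, against 14.6% of all protein-coding genes. The share of 17.6% for adhesion integrins was then close to that of all genes, and Itga5, Itga6, Itgav, Itgb1 and Itgb5 were no longer among them.

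Of the motifs searched in the 200 bp around each region's midpoint, on both strands, GGGCGG (Sp and Klf factors) was found in 5 of 20 start-site regions of the families (25%), at Itgav, Itgb5, Itgb3bp and in 2 regions of Itga2b, against 21.5% of all start-site regions in the list. GGAATG (TEAD factors) was found in 12 of the 65 other regions (18.5%), of which 4 were in Itgb5 and 2 in Lama4. It was found in 10.6% of all listed regions, start-site regions included, and in 9.06% of the start-site regions alone. Its share in listed regions away from starts was not computed. TGANTCA (AP-1) was in 1 and 4 regions, CACGTG (E-box) in 0 and 2, and TGACGTCA (CRE) in none of the 20 and 65, against 5.68%, 2.94% and 0.205% of the whole list. A match is a run of letters and not a measured binding site, a longer motif is rarer by its length alone, and regions of 1 gene are not independent.

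Most of the listed genes of integrin adaptor, signalling and focal adhesion proteins had a start-site region. Of 28 adaptor and focal adhesion genes 20 were marked (71.4%, exact 95% binomial interval 51.3 to 86.8), against 39.5% of all protein-coding genes. The strongest in the authors' deposited table were Ptk2, which encodes focal adhesion kinase (6 start-site regions, best score 25.72), Actn4, an actin crosslinker (20.03), Tln1, the talin that binds beta subunit tails (19.01), and Parva, a partner of integrin-linked kinase (12.99). Apbb1ip and Fermt1 were among the 8 unmarked. The start windows of this list had a median of 2.73 CpG sites per 100 bp in the 20 marked genes and 1.98 in the 8 unmarked, and a median length of 6252 bp against 4002 bp for all protein-coding genes. The part of either in the count was not tested. Of 11 laminin partners 5 were marked (45.5%), with Sdc2 (10.24), Sdc1 (5.62) and Sdc4 (5.54), which encode syndecans, and Dag1 (4.41), the dystroglycan gene, strongest in the authors' deposited table, and Bcam and Hspg2 unmarked. Of 13 genes of other integrin ligands 6 were marked (46.2%). The strongest in the authors' deposited table were Fbn1 (7.12), Vcam1 (6.86), the ligand of alpha4 integrins, Fn1, the fibronectin gene (5.63), and Tnc, the tenascin gene (5.21). Icam1 and Icam2, which encode ligands of the beta2 integrins, were unmarked, and Cdh1, the ligand of alphaE, was too. Without the regions below the median score, 8 of 28 adaptor and focal adhesion genes were marked (28.6%), against 14.6% of all protein-coding genes. Of the laminin partners 1 of 11 was then marked (9.09%), and of the other ligand genes 2 of 13 (15.4%).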

How the data were processed

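H3K9ac ChIP-seq of HT22 cells gave 4 libraries, grouped here by kind (2 input DNA, 2 H3K9ac ChIP DNA). Per the submitters' processing notes, the tools were CASAVA 1.8, Bowtie 1.0.0 and MACS2, for which no version is named, and the build mm10; per the series' design text, differences between the choline levels were called with the bdgdiff function. Per the file headers the deposited list holds regions unique to condition 1 or condition 2. The score of each region is the authors' deposited value; its column is unnamed, and the sources used here do not give how the libraries were scaled.

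Positions were set against GENCODE M21 and RefSeq GRCm38.p6 (same build as mm10); 0 regions passed a chromosome end. A region counted with an overlap of at least 1 bp with the 1000 bp either side of any transcript start, or with the gene span. Place in a gene is that of the region's midpoint. Repeat sequence is the lower-case sequence of the RefSeq genome. Binomial intervals are exact (Clopper-Pearson, 95%, SciPy 1.17.1); sequence was read with pysam 0.24.0. The overlap code was tested on simulated regions. No comparison was tested, since no choline level had replicates and the members and gene lists were chosen with earlier results of these data known.

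All 41 members enter the counts; 1 laminin gene is not reported by name here or drawn in the map of regions. Members with a start-site region were to be described in full, with the 5 others that hold the most regions. Sequence was printed for the strongest region of 3 adhesion integrins, 2 leukocyte integrins and 3 laminins, start-site regions first; Itgb8, whose region is untranslated sequence, gave way to the next gene, and the Itgb1 and upstream Itga3 regions were added after the values were seen. In partner and marker lists the strongest and first unmarked genes were named; Rbfox3, Ptprc, Icam1, Icam2 and Cdh1 were named outside that rule after their values were seen.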

Additional observations from a re-analysis of the deposited data

How the results depend on the processing

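Of the values recomputed, 80 stayed within 1.5 times the reported one and 22 did not. Some of the 80 could not have moved. No start-site region of the members or the partner lists was assigned to condition 1, so leaving those regions out changed nothing. A count of 0 also could not rise where a setting only narrowed what was counted. Without the regions below the median score, start-site counts fell to 5 of 41 members, 3 adhesion integrins, 8 adaptor genes, 1 laminin partner and 2 other ligand genes. The share of all protein-coding genes with a start-site region fell too, to 14.6%. Regions per 100 kb were then 1.08 for all members, 1.37 for adhesion integrins, 0.845 for laminins and 0.509 for leukocyte integrins, of which 2 genes held a region. Windows of 2500 bp gave 6 laminins and 8 laminin partners, and windows of 500 bp gave 3 laminin partners. With the 5′-most start alone 8 members and 0 laminins had a start-site region, and with the start of the lowest-numbered transcript alone, chosen after seeing the data, 0 laminins. The leukocyte integrins stayed at 0 of 9 genes with windows of 2500 bp, where 46.5% of all protein-coding genes were marked. Every other setting of regions and windows only narrows what is counted, so it could not raise a count of 0. The leukocyte integrins had 1 marked gene only when Itga2b was counted among them. The adhesion integrins had 6 to 10 genes in every setting but the median score. With the 5′-most start alone their share was 35.3%, against 32.5% of all protein-coding genes, and under the midpoint rule 41.2% against 38.6%. It was 41.2% against 32.5% with windows of 500 bp, and 58.8% against 46.5% with windows of 2500 bp. In windows of 100 bp, start-site regions held GGGCGG in 2 cases, GGAATG in 1 and TGANTCA in 0, and other regions TGANTCA in 2 and CACGTG in 1. The cause of these changes was not tested beyond the fewer regions, starts or bases each setting admits. No paired analysis was possible because the list has no values per library. Read depth is unknown, so weak differences could not be told from sampling.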
